A study of Mus musculus with 7 samples.

Results

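The AP-1 family transcription factors were followed in haematopoietic stem cells, the marrow cells from which blood lineages arise, of control mice and of mice with MC38 colon cancer. The 10 members were taken by name, with earlier results of these data known: Fos, Fosb, Fosl1, Fosl2, Jun, Junb, Jund, Atf3, Batf and Maff. All 10 are among the 28786 genes of the count table and all 10 passed the filter on low counts, which 14226 genes passed. The study profiled these cells to look for the mechanism behind a myeloid bias during tumour growth. The control group is given only as control or normal mice, and the other group as C57BL/6J mice with colon cancer of the MC38 line, a mouse colon carcinoma line. The mice were 6 to 8 weeks old, with no genetic change or drug named for either group. Each library came from 1500 sorted marrow cells, and 2 control and 4 MC38 libraries were compared. The labels do not state the tumour's site or duration, the sort markers or the time from killing to lysis. They also do not state whether the libraries are from different mice or from the same cells, so each p-value is set against a spread that may be technical only.

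AP-1 is a dimer of proteins with a basic region and a leucine zipper (bZIP), most often a Fos protein with a Jun protein, that binds short DNA sites beside genes of growth, stress and inflammation. Fos, Fosb, Jun, Junb and Atf3 are immediate early genes: kinases of the MAP kinase cascade act on factors already bound to their promoters, transcription starts within minutes, and the messages are short-lived. Flushing, lysis and sorting of fresh tissue are known to induce the same genes, so their level in a sorted population can hold a part made during isolation.

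In MC38 libraries, Fosb, Atf3 and Jund fell and Fosl2 rose, while the other 6 members did not pass the test. Fosb, a Fos protein of the immediate early response, was 2.33-fold lower. Atf3, a stress-induced bZIP factor that can repress its targets, was 1.85-fold lower, and Jund, the Jun protein with the steadiest expression in many resting cells, was 1.69-fold lower. Fosl2, a Fos-related protein without the strong activation domain of Fos, was 1.71-fold higher. Thus 4 of 10 members passed an adjusted p of 0.05 in edgeR's quasi-likelihood test, against 1.61% of all genes tested in either direction. By direction, 1 of 10 was called higher against 1.04% of all genes, and 3 of 10 were called lower against 0.569%. At an unadjusted p under 0.05, 6 of 10 members passed, against 17.5% of all genes. The median log2 fold change, MC38 minus control, was -0.22 over the 10 members and 0.01 over all genes tested. Because the family was chosen with earlier results of these data known, these shares describe it and are no test of it.

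The libraries held 12131546 and 12306066 counts in the control group and 13368238 to 17657037 in the MC38 group. The column of control library 3 was not independent of the other controls: over 9652 genes with at least 200 counts in the sum of the other controls its count was a median of 0.353 of that sum, with 95% of genes between 0.341 and 0.371, and the 10 members lay between 0.347 and 0.359. It was left out of every value here unless named. Among the MC38 libraries, the deviations from the group mean over 7919 genes correlated at 0.291 between libraries 1 and 2 and at 0.246 between libraries 3 and 4, and at -0.881 to -0.425 across these pairs. Deviations from a group's own mean cancel out for each gene, so negative correlations are in part forced.

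The labelled cell type was checked against marker genes. All 10 stem cell markers, among them Kit, Procr, Hlf and Meis1, were detected, none was called, and their summed level was 1214 to 1451 CPM (each count scaled to the library's total) in the controls and 1294 to 1427 in MC38. Of 8 neutrophil markers, 7 rose, and their summed level was 27697 to 27947 CPM in the controls and 53486 to 60911 CPM in MC38. Of 7 B cell markers 1 rose, Ighm, the heavy chain of IgM, at 889 and 791 CPM in the controls and 1987 to 2522 CPM in MC38, and it makes up most of the list's sum of 924 to 1020 CPM and 2138 to 2717 CPM. The other 6 together were at 130.5 to 132 CPM in the controls and 152 to 195 CPM in MC38. Of 8 monocyte and macrophage markers 1 rose (C1qa), with sums of 424 to 460 CPM and 500 to 612 CPM, and 1 of the 8 was at 0 in some library. The mean of C1qa lay under the 5 CPM set for naming genes. At an unadjusted p under 0.05, 4 of these 8 passed, against 17.5% of all genes tested. In every MC38 library 5 of them were above both controls, against 14% of all genes. DESeq2 called 3 of them higher and limma-voom 0. None of 9 T and NK cell markers (418 to 480 and 402 to 445 CPM) and none of 7 erythroid markers (182 to 265 and 163 to 185 CPM) was called by edgeR. At an unadjusted p under 0.05, 1 stem cell, 4 T and NK cell and 1 erythroid marker passed. DESeq2 called 1, 2 and 0 of them, all higher, while limma-voom called 0. The flat sum of the T and NK cell list hides a median log2 fold change of 1.08, with 1 of 9 below 0. In every MC38 library 4 of these 9 were above both controls and 1 was below both, against 14% and 15% of all genes. Neutrophil markers and Ighm thus moved with the group beside every AP-1 result below. The sums of the monocyte and macrophage list and of the other 6 B cell markers were also higher in every MC38 library than in either control. The part of all these markers in the AP-1 results was not tested. In such bulk samples a smaller share of cells that express a gene and less RNA of it per cell cannot be told apart.

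The family's place in these cells was compared per length, as CPM per kilobase of exon. In the control mean, Fos stood at 2045 CPM per kilobase, rank 39 among 14001 tested genes with an exon length. Junb followed at 1135, Jun at 1057 and Jund at 945 CPM per kilobase, at ranks 71, 78 and 87. Junb lay above Jun in each control library, at 1174 against 1106 and 1097 against 1008 CPM per kilobase, although the ranges overlap across the libraries. Jun lay above Jund in control 1 and below it in control 2, so the order of that pair differs between the controls. Fosb at 205 and Atf3 at 162 CPM per kilobase came next in the controls and did not overlap each other. Batf at 37.4, Maff at 14.4, Fosl2 at 10.5 and Fosl1 at 6.15 CPM per kilobase formed the low end, down to rank 5807.

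The order was partly different in the MC38 libraries. Junb at 991 to 1325, Jun at 821 to 875 and Jund at 466 to 660 CPM per kilobase no longer overlapped. Fosb at 87.3 to 88.9 and Atf3 at 81.4 to 95.8 CPM per kilobase overlapped, and Fosl2 at 14.8 to 19.9 lay above Maff at 12.1 to 13.8, the reverse of the controls. The 10 members together took 1.38% and 1.41% of all counts in the control libraries and 1.13%, 1.14%, 1.13% and 1.11% in MC38 libraries 1 to 4, so each MC38 share lay below both control shares.

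**Figure D1:**
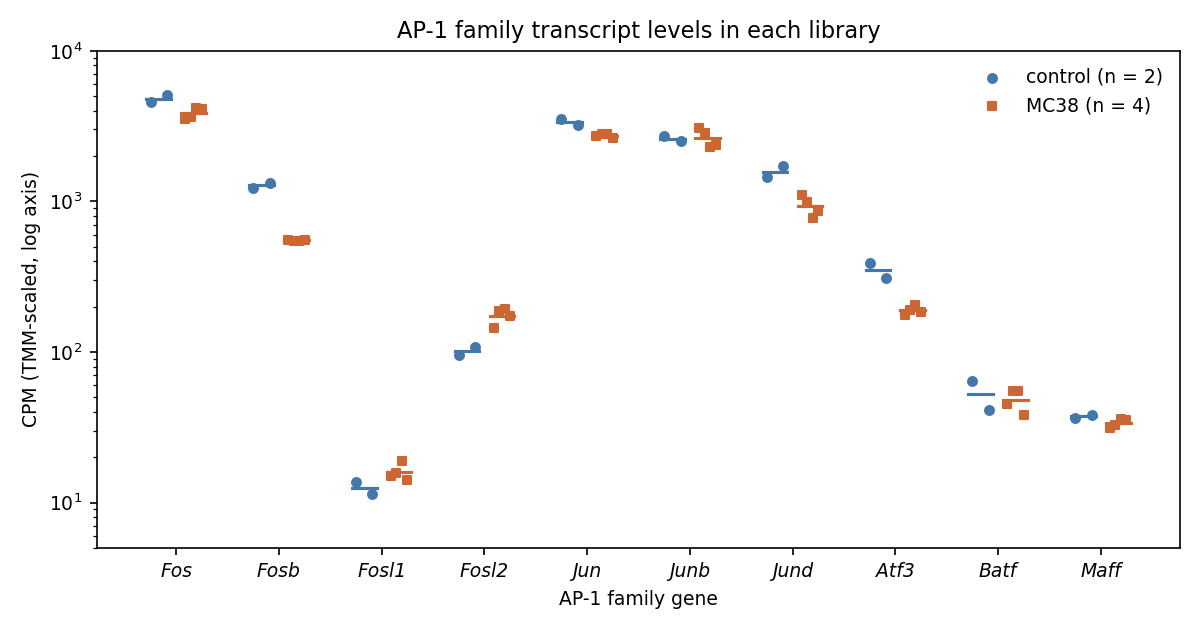
Level of each AP-1 member in each library, in CPM on a log axis, with control and MC38 libraries as separate points and the group means as bars. Fosb and Atf3 are lower and Fosl2 is higher in every MC38 library than in either control, while Junb and Batf overlap.

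Fos genes encode the partners that need a Jun protein to bind DNA. Fosb lies at chr7:19302696-19310051 on the minus strand of GRCm38 and its transcript has 4 exons. Its level was 1233 and 1332 CPM in control libraries 1 and 2, and 554, 547, 545 and 555 CPM in MC38 libraries 1 to 4. The MC38 libraries lay close together and far below both controls, which were themselves close. The means were 1283 ± 69.4 CPM (SD, n = 2) and 550 ± 4.86 CPM (SD, n = 4), a log2 fold change of -1.22 with a standard error of 0.096 (edgeR adjusted p = 0.000256). The call held in all 14 alternative settings, with log2 fold changes from -1.27 to -1.16 and a highest adjusted p of 0.0123.

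Fosl2 lies at chr5:32135801-32157842 on the plus strand, with 4 exons. It was at 94.8 and 108.5 CPM in the controls and at 143, 186, 193 and 172 CPM in MC38 libraries 1 to 4. The groups did not overlap, and the lowest MC38 library was library 1. Means of 102 ± 9.74 CPM (SD, n = 2) and 174 ± 21.9 CPM (SD, n = 4) gave a log2 fold change of 0.77 with a standard error of 0.15 (edgeR adjusted p = 0.0405). This call rested on single libraries: the adjusted p was 0.290 without control 1, 0.124 without control 2, 0.125 without MC38 library 2 and 0.120 without MC38 library 4, and it was 0.0558 with limma-voom, while the direction was the same in all 14 alternatives.

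Fos itself, the founding member, lies at chr12:85473890-85477273 on the plus strand, with 4 exons. Its level was 4541 and 5080 CPM in the controls and 3512, 3652, 4190 and 4109 CPM in MC38 libraries 1 to 4. Every MC38 library was below both controls, with means of 4810 ± 381 CPM (SD, n = 2) and 3866 ± 334 CPM (SD, n = 4). The log2 fold change of -0.32 with a standard error of 0.11 did not pass over all genes (edgeR adjusted p = 0.196), nor in any of the 14 alternatives. Fosl1, at chr19:5447547-5455946 on the plus strand, is a Fos-related protein best known from epithelial and invasive cells. It was at 13.7 and 11.3 CPM in the controls and at 15.0, 15.6, 18.8 and 14.1 CPM in MC38 libraries 1 to 4. The groups were separate by a narrow gap, and the log2 fold change was 0.34 with a standard error of 0.28 (edgeR adjusted p = 0.572). Its exons overlap those of Ccdc85b on the other strand, which had 158 to 385 counts per library.

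**Figure D2:**
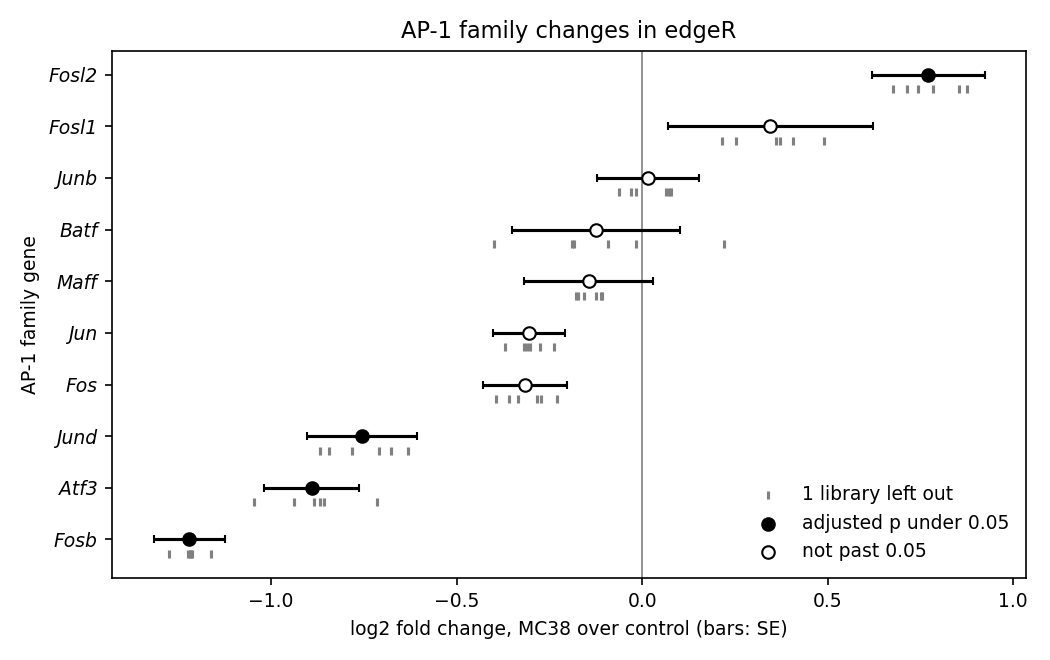
Log2 fold change, MC38 minus control, of each AP-1 member with bars of 1 standard error to each side. Filled points are members with an edgeR adjusted p under 0.05, and grey marks are the fits with 1 library left out. Fosb at -1.22, Atf3 at -0.89 and Jund at -0.75 are filled below 0 and Fosl2 at 0.77 above 0, while Junb at 0.02 lies on the line.

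The Jun genes have a single exon each. This holds for Jun, Junb and Jund, 3 of 10 members, against 3.43% of 17361 protein-coding genes with a count. Jund lies at chr8:70698949-70700616 on the plus strand. It was at 1447 and 1704 CPM in the controls and at 1100, 997, 777 and 860 CPM in MC38 libraries 1 to 4. The groups did not overlap, and MC38 library 3 was the lowest. Means of 1576 ± 182 CPM (SD, n = 2) and 934 ± 144 CPM (SD, n = 4) gave a log2 fold change of -0.75 with a standard error of 0.15 (edgeR adjusted p = 0.0403). The adjusted p was 0.171 without control 1, 0.187 without control 2, 0.111 without MC38 library 2 and 0.136 without MC38 library 4, with the same direction in each.

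Jund also shares its locus with Gm11175, an antisense gene whose exons overlap it. Without a stated strand setting the reads of the pair cannot be told apart. Gm11175 was counted at 210 and 238 CPM in the controls and at 154, 123, 18.9 and 65.8 CPM in MC38 libraries 1 to 4 (edgeR adjusted p = 0.446). Its count was 14.5% and 13.9% of the Jund count in the controls, 14.0% and 12.3% in MC38 libraries 1 and 2, and 2.43% and 7.65% in MC38 libraries 3 and 4. With both genes counted together, the log2 fold change was -0.81 and the adjusted p was 0.0515, so the call was lost while the size was not smaller.

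Jun, the protein that gives the family its transactivating dimers with Fos, lies at chr4:95049034-95052222 on the minus strand. Its level was 3529 and 3215 CPM in the controls and 2719, 2789, 2789 and 2618 CPM in MC38 libraries 1 to 4. All MC38 libraries were below both controls, with means of 3372 ± 222 CPM (SD, n = 2) and 2729 ± 80.7 CPM (SD, n = 4), a log2 fold change of -0.31 with a standard error of 0.098 (edgeR adjusted p = 0.151). It passed in 1 of 14 alternatives, the one with all 7 columns, at an adjusted p of 0.0311. Junb, a Jun protein that often restrains Jun, lies at chr8:84974484-84978718 on the minus strand. It was at 2701 and 2524 CPM in the controls and at 3048, 2853, 2281 and 2382 CPM in MC38 libraries 1 to 4. The MC38 libraries lay on both sides of the controls, 1 and 2 above and 3 and 4 below. The log2 fold change was 0.02 with a standard error of 0.14 (edgeR adjusted p = 0.967). The 3′ end of Junb overlaps Prdx2 on the other strand, at 399 ± 36.9 CPM in the controls (SD, n = 2) and 287 ± 22.5 CPM in MC38 (SD, n = 4), with an edgeR adjusted p of 0.0806.

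The remaining members are bZIP proteins outside the Fos and Jun subfamilies. Atf3 lies at chr1:191170296-191218039 on the minus strand, with 4 exons. It was at 390 and 309 CPM in the controls and at 175, 189, 206 and 184 CPM in MC38 libraries 1 to 4. The controls differed more from each other than the MC38 libraries did, and the groups did not overlap. Means of 350 ± 56.8 CPM (SD, n = 2) and 188 ± 13.2 CPM (SD, n = 4) gave a log2 fold change of -0.89 with a standard error of 0.13 (edgeR adjusted p = 0.009). The call held in 13 of 14 alternatives and was lost without control 1, at a log2 fold change of -0.71 and an adjusted p of 0.143.

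Batf, which pairs with Jun proteins and works with IRF factors in lymphoid and stem cells, lies at chr12:85686669-85709087 on the plus strand. It was at 63.8 and 41.4 CPM in the controls and at 45.2, 55.0, 54.6 and 38.2 CPM in MC38 libraries 1 to 4. The controls spanned most of the MC38 range, and the log2 fold change of -0.12 had a standard error of 0.23 (edgeR adjusted p = 0.836). Maff, a small Maf protein with no activation domain, lies at chr15:79346621-79359076 on the plus strand. It was at 36.5 and 38.3 CPM in the controls and at 31.5, 32.8, 35.7 and 35.5 CPM in MC38 libraries 1 to 4. The MC38 libraries lay just below the controls, and the log2 fold change of -0.14 had a standard error of 0.17 (edgeR adjusted p = 0.727).

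By separation alone, 6 of 10 members were lower in every MC38 library than in both controls, against 15% of all genes tested, and 2 of 10 were higher, against 14%. The lower ones were Fos, Fosb, Jun, Jund, Atf3 and Maff, the higher ones Fosl1 and Fosl2, and Junb and Batf overlapped.

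The members' share within their subfamily was compared as a ratio of CPM within each library, which does not depend on the scaling between libraries. The ratio of Fosb to Fos was 0.272 and 0.262 in the controls and 0.158, 0.15, 0.130 and 0.135 in MC38 libraries 1 to 4. The ratio of Fosl2 to Fos was 0.0209 and 0.0214 in the controls and 0.0408, 0.0508, 0.0460 and 0.0419 in MC38. For Fosl2 to Fosb it was 0.0768 and 0.0815 in the controls and 0.258, 0.339, 0.354 and 0.311 in MC38, a difference of 1.98 on the log2 scale and the largest of the 9 ratios. Each of these 3 ratios was separate between the groups, as were Fosl1 to Fosb and Fosl1 to Fos, with log2 differences of 1.56 and 0.66.

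Among the Jun genes, the ratio of Jund to Junb was 0.536 and 0.675 in the controls and 0.361, 0.350, 0.341 and 0.361 in MC38, a log2 difference of -0.77. The ratio of Junb to Jun was 0.766 and 0.785 in the controls and 1.12, 1.02, 0.818 and 0.910 in MC38, and that of Jund to Jun had a log2 difference of -0.46. Of the 9 ratios 8 were separate, the exception being Fosl2 to Fosl1. These ratios reuse the same genes, most of them separate on their own, so they are not independent of each other. Among single genes, 14% of all tested were higher and 15% lower in every MC38 library. The share of separate ratios over other gene pairs was not computed. With 15 splits of 6 libraries, the smallest two-sided exact permutation p is 0.0667, so no ratio could reach 0.05. That value was found for 6 ratios, Fosb to Fos, Fosl1 to Fos, Fosl2 to Fos, Fosl1 to Fosb, Fosl2 to Fosb and Jund to Junb (exact p 0.1 after adjustment over the 9 ratios), while Junb to Jun and Jund to Jun gave exact p = 0.133 and 0.15 after adjustment.

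Short messages of the immediate early class carry AU-rich elements in the 3′ untranslated region that speed their decay. The letters TATTTAT, the core of such an element, were searched on the sense strand of the 3′ untranslated region of 1 transcript per gene. They were present in 8 of 10 members, all but Junb and Batf, against 26.3% of 17361 protein-coding genes with a count. A longer region holds the letters more often by length alone, and the members' regions ranged from 335 bases in Batf to 4653 in Fosl2 against a median of 903 over all genes. The stretches below are shown for Fos and the members that passed the test, 1 per gene, 5′ to 3′ from the GRCm38 transcripts, with TATTTAT in capitals. They lie at chr12:85477105-85477129, chr7:19303328-19303352, chr5:32156204-32156228, chr8:70700361-70700385 and chr1:191170340-191170364.
Fos: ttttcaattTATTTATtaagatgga
Fosb: acccccagcTATTTATccctttcct
Fosl2: gcacttttcTATTTATcctctttta
Jund: attccgcccTATTTATgtttctact
Atf3: aatattactTATTTATcccagtatt
The element is present both in Fosb, Jund and Atf3, which fell, and in Fosl2, which rose.

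The promoters were read from RefSeq windows of 250 bases before the start (GRCm38.p6), which matched 9 of 10 members. TGACG in either direction, the core of the site of CREB and ATF proteins, was in windows of 6 of the 9 (Atf3, Batf, Fos, Fosb, Junb and Maff). Counted by window, since Maff has more than 1, it was in 7 of 11 member windows, against 17.8% of 32851 windows of all genes. The full palindrome TGACGTCA, which holds TGACG, was in Maff and in 1.55% of windows. TGACTCA, a site that AP-1 itself binds, and the CArG box of serum response factor were in no member window, against 4.46% and 1.47% of all windows. Variants of these letters were not searched. CCAAT was in Jun and Junb, 2 of 11 member windows, against 33.8%. Sequence further upstream than 250 bases was not searched, so an absence holds for these windows only. The Fosl2 window lies wholly in annotated exon sequence. The Jund window ends at position 70697738, well before the GENCODE start of Jund at 70698949. The Atf3 window holds 7 bases of annotated exon sequence and lies well inside the GENCODE span of Atf3, chr1:191170296-191218039. The windows of 4 immediate early members are shown because they hold the core while the members behaved differently, with Fosb and Atf3 lower and Fos and Junb not called. Each is given 5′ to 3′ on the gene's strand, with the core in capitals, as TGACG or as CGTCA.
Fos: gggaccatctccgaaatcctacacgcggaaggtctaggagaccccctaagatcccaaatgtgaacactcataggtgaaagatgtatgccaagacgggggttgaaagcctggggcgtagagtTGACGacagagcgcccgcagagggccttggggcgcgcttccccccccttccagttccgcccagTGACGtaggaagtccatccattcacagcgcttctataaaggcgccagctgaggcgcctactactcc
Fosb: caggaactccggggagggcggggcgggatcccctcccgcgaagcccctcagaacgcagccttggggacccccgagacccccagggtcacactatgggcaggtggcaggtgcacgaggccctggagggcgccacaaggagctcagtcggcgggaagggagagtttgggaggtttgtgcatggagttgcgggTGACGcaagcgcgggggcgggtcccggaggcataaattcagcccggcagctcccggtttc
Junb: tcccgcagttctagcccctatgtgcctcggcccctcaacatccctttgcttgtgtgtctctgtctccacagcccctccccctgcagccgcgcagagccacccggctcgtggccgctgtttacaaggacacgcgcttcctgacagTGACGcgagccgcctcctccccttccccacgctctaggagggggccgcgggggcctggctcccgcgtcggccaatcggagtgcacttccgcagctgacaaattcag
Atf3: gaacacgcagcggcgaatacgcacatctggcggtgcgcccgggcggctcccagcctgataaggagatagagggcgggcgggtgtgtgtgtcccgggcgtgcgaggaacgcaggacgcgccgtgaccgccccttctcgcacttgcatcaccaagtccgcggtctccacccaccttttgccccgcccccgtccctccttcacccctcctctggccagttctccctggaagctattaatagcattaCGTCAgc
These windows lie at chr12:85473640-85473889, chr7:19310046-19310295, chr8:84978749-84978998 and chr1:191183334-191183583. The core begins 129 and 66 bases before the start in Fos, 60 in Fosb, 106 in Junb and 7 in Atf3. A match describes these letters only and is no measure of binding.

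The genes around AP-1 were taken from 7 lists, of which 139 genes were tested, 3 of them called higher and 8 lower. Over all genes tested, edgeR called 1.04% higher and 0.569% lower, and 17.5% had an unadjusted edgeR p under 0.05. The counts of each list below stand beside these shares. Upstream, 1 of 27 tested genes of the MAP kinase cascade rose and none fell, with a median log2 fold change of 0.19 (DESeq2 called 4 higher and limma-voom 0, and 8 had an unadjusted edgeR p under 0.05). The riser was Mapk13, the p38 delta kinase, at 33.2 ± 0.173 CPM (SD, n = 2) in the controls and 75.0 ± 14.1 CPM (SD, n = 4) in MC38, 2.26-fold higher (edgeR adjusted p = 0.0233). The adjusted p was 0.200 without control 1, 0.126 without control 2, 0.0841 without MC38 library 2 and 0.0529 with limma-voom. Mapk8, the kinase JNK1 that phosphorylates Jun, was at 13.8 ± 0.475 CPM (SD, n = 2) and 34.0 ± 12.4 CPM (SD, n = 4) without passing (edgeR adjusted p = 0.0964). Map3k5 and Map2k4, which act above JNK, had edgeR adjusted p = 0.0821 and 0.127.

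Of 13 factors that sit on the promoters of immediate early genes, such as Srf and Crebbp, none was called in either direction by edgeR (adjusted p = 0.196 and 0.183 for these), DESeq2 or limma-voom. At an unadjusted p under 0.05, 4 of them passed, and the median log2 fold change was 0.12. Srf, which binds the CArG box, was at 40.4 ± 8.33 CPM (SD, n = 2) in the controls and 26.9 ± 3.54 CPM (SD, n = 4) in MC38. Mrtfa, its actin-linked partner, was at 21.3 ± 5.21 CPM (SD, n = 2) and 33.4 ± 1.66 CPM (SD, n = 4), with an edgeR adjusted p of 0.168, and Mef2a had 0.216.

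Beside AP-1 stand other bZIP proteins that pair or compete with it. None of 20 tested was called by edgeR, with a median log2 fold change of 0.19. At an unadjusted p under 0.05, 6 passed, and DESeq2 called 1 higher and 1 lower while limma-voom called 0. Atf2, a dimer partner of Jun, was at 27.9 ± 2.83 CPM (SD, n = 2) in the controls and 44.1 ± 8.93 CPM (SD, n = 4) in MC38 (edgeR adjusted p = 0.183). Ddit3, a factor of the endoplasmic reticulum stress response, was at 154 ± 17.8 CPM (SD, n = 2) and 112 ± 8.72 CPM (SD, n = 4), with an edgeR adjusted p of 0.114. Mafk and Crem had 0.243 and 0.246.

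Feedback genes that switch off the kinases or degrade the messages were not called by edgeR either, 0 of 16, with a median log2 fold change of -0.07. At an unadjusted p under 0.05, 3 passed, and DESeq2 called 2 lower while limma-voom called 0. The nearest were Dusp5, a phosphatase of ERK kinases, at 227 ± 6.43 CPM (SD, n = 2) and 162 ± 8.24 CPM (SD, n = 4) with an edgeR adjusted p of 0.062, and Spry1, an inhibitor of receptor signalling, with 0.0642. Dusp2 and Zfp36l1 had 0.271 and 0.333. Dusp1, a phosphatase of the same feedback list named after its values were seen, was at 2825 ± 176 and 2825 ± 110 CPM (SD, n = 2 and 4), with an edgeR adjusted p of 1.0.

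Of 34 other immediate early genes, 4 fell and none rose in edgeR's test, with a median log2 fold change of -0.09. At an unadjusted p under 0.05, 11 passed in either direction, and DESeq2 called 3 higher and 4 lower. Klf2, a Kruppel-like factor that maintains quiescence in several blood cells, was at 1730 ± 34.7 CPM (SD, n = 2) in the controls and 758 ± 79.5 CPM (SD, n = 4) in MC38 (edgeR adjusted p = 0.000936), and its call held in all alternatives. Klf4 was at 409 ± 11.4 and 195 ± 28.8 CPM, Klf6 at 1840 ± 55.6 and 1025 ± 143 CPM, and Rhob, a small GTPase, at 532 ± 12.1 and 317 ± 23.0 CPM (SD, n = 2 and 4), with edgeR adjusted p of 0.00546, 0.0148 and 0.0105. These 3 calls were lost without control 1 (0.112, 0.147 and 0.113) and without control 2 (0.0739, 0.117 and 0.0961), and those of Klf6 and Rhob also without MC38 library 2 (0.071 and 0.0543). The remaining 30 did not pass. Egr1, named after its values were seen, was at 2294 ± 120 and 2063 ± 79.8 CPM (SD, n = 2 and 4), with an edgeR adjusted p of 0.469. Its MC38 libraries, at 2010 to 2181 CPM, all lay below the controls at 2209 and 2378 CPM. In every MC38 library 9 of the 34 were lower than in both controls and 3 were higher, against 15% and 14% of all genes.

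Heat shock genes, whose induction also accompanies cell handling, moved with the group. Of 15 tested, 3 fell and none rose (9 fell and none rose with DESeq2, 4 and none with limma-voom), and the median log2 fold change was -0.53. Among all genes tested, edgeR called 0.569% lower. A log2 fold change below 0 was found for 13 of the 15, against 49.1% of all genes. In every MC38 library 10 of the 15 were lower than in both controls, against 15% of all genes. Hspa1a, the inducible Hsp70 chaperone, was at 60.1 ± 2.40 CPM (SD, n = 2) in the controls and 14.5 ± 1.12 CPM (SD, n = 4) in MC38 (edgeR adjusted p = 0.000532), and its call held in all alternatives. Hspa8, the constitutive chaperone of that class, was at 1820 ± 36.2 and 1168 ± 138 CPM and Dnajb1, a co-chaperone, at 1289 ± 87.4 and 829 ± 24 CPM (SD, n = 2 and 4), with edgeR adjusted p of 0.0386 and 0.0147. Both calls were lost without control 1 (0.256 and 0.179), control 2 (0.141 and 0.0745), MC38 library 2 (0.135 and 0.0829) or MC38 library 4 (0.105 and 0.0751), and that of Hspa8 with scaling by library totals (0.0513). Hspe1 had an edgeR adjusted p of 0.055. The labels give no order or time of handling, so handling and tumour cannot be told apart, and the part of these genes in the AP-1 result was not tested.

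Downstream, 14 of 19 genes known as AP-1 targets were tested, with 2 higher and 1 lower and a median log2 fold change of 0.12. Mmp9, a gelatinase stored in neutrophils, was at 185 ± 3.43 CPM (SD, n = 2) in the controls and 363 ± 30.6 CPM (SD, n = 4) in MC38 (edgeR adjusted p = 0.00434). Plaur, the urokinase receptor, was at 183 ± 57.2 CPM (SD, n = 2) and 382 ± 13.0 CPM (SD, n = 4), with an edgeR adjusted p of 0.0166. Ccl2, a chemokine for monocytes, fell from 56.1 ± 0.064 CPM (SD, n = 2) to 27.9 ± 2.48 CPM (SD, n = 4), with an edgeR adjusted p of 0.0205, and Mt1 had 0.148. The calls of Mmp9 and Ccl2 were lost without control 1 (0.0919 and 0.161) or control 2 (0.0745 and 0.108), that of Ccl2 also without MC38 library 2 or 4 (0.0847 and 0.074), and that of Plaur without control 2 (0.08) or MC38 library 2 (0.0623). The 7 neutrophil markers that rose moved with Mmp9.

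**Figure D3:**
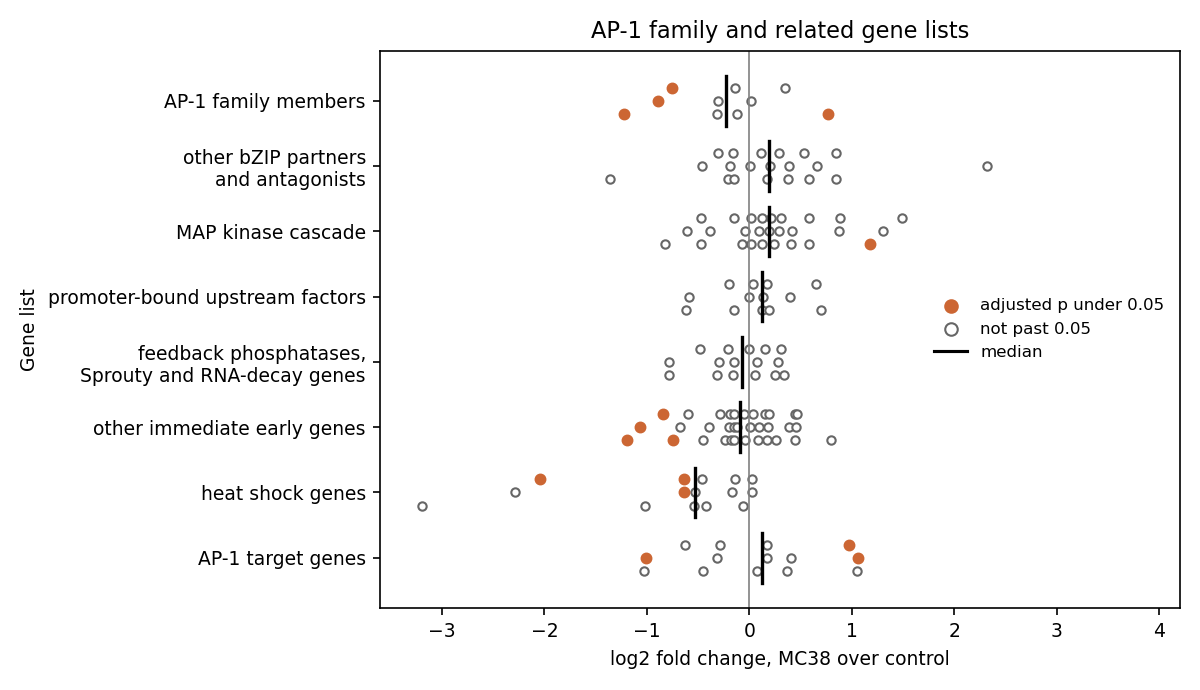
Log2 fold change, MC38 minus control, of every tested gene in the AP-1 members and the 7 related lists, 1 point per gene, with called genes filled and a bar at each list's median. The heat shock list has the lowest median, -0.53, and the AP-1 members the next lowest, -0.22.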

How the data were processed

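Sorted marrow stem cells were profiled by low-input sequencing of polyadenylated RNA with 12 PCR cycles, per the labels' protocols. The authors deposited whole-number read counts per Ensembl gene. Reads were handled with HTSeq 0.10.0, STAR 2.6.1 and Trim Galore 0.5.0 on mm10, per the submitters' processing notes. Those sources state neither the annotation release nor the strand setting, and no molecular identifiers are named, so PCR copies count as reads. GENCODE M21 named 27728 of 28786 gene IDs.

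Counts of 2 control and 4 MC38 libraries were filtered with filterByExpr, scaled by TMM and tested across all genes by edgeR 4.0.16 (quasi-likelihood, robust, two-sided, Benjamini-Hochberg, threshold 0.05) in R 4.3.3. CPM are counts scaled by the TMM library sizes. Standard errors were taken from the fold change and its F statistic. Alternatives were all 7 columns, other scalings, DESeq2 1.42.0, limma-voom 3.58.1, no filter, each library left out, a replicate block and, added after seeing the data, Jund with Gm11175. The scripts were tested on simulated data. Ratios used exact permutation tests. The members and lists were chosen with earlier results of these data known. All members are named. From each related list the 4 genes of smallest p with a mean of at least 5 CPM are named.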

Additional observations from a re-analysis of the deposited data

Results flagged for a closer look

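Of 78 genes examined in the 4 MC38 libraries, 2 had a library far from the others, and chance alone does so in about 5% of groups of 4. Neither is an AP-1 member. Meis1 was at 204 CPM in MC38 library 2, with the nearest other library at 218 and the highest at 220 CPM. Csf1r was at 23.7 CPM in MC38 library 1, with the nearest other at 16.3 and the lowest at 14.9 CPM.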

How the results depend on the processing

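Against 148 genes higher and 81 lower, the counts were 791 and 663 with all 7 columns, 634 and 393 with DESeq2, 302 and 202 without the filter, and 44 to 259 and 16 to 183 with a library left out. AP-1 members called higher were 0 with limma-voom, and 0 to 1 called higher and 1 to 3 lower with a library left out, where the members' median ranged from -0.30 to -0.19. Heat shock genes called lower were 10 (7 columns), 9 (DESeq2), 8 (no filter) and 1 to 5 (a library left out), and other immediate early genes called lower 1 to 4 (a library left out). Over the 7 related lists, higher and lower calls were 14 and 23 (7 columns), 10 and 17 (DESeq2), 6 and 14 (no filter), and 0 to 6 and 2 to 10 (a library left out). Without control 1 the counts were lowest, at 44 and 16. Junb changed sign without control 2 (-0.031), MC38 library 1 (-0.061) and MC38 library 2 (-0.017), within a leave-one-out range of -0.061 to 0.079, and Batf without control 1 (0.22), within -0.40 to 0.22.

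Nothing in the labels pairs the libraries by replicate number. Same-numbered libraries correlated at 0.148 and -0.129 in their deviations from the group mean. The deviations of the 2 controls mirror each other by construction, so these values are not separate checks and cannot decide on pairing. With a replicate block on replicates 1 and 2, 132 genes were higher and 59 lower, AP-1 members 1 and 2, related genes 5 higher, and Jund and Ccl2 were not called (edgeR adjusted p = 0.0619 and 0.0546). The 2 controls limit every test. The members had at least 137 counts in each library.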
